A study of Mus musculus with 8 samples.

Results

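Myeloid C-type lectin receptors were described in multipotent progenitors of wild type and FLT3-ITD mice. The 10 genes, Clec1a, Clec1b, Clec2d, Clec4a2, Clec4d, Clec4e, Clec5a, Clec7a, Clec9a and Clec12a, were chosen by family with the FLT3-ITD and wild type values of these arrays already known, so their differences between genotypes are a description and carry no test. Every probe set that the array's annotation assigns to exactly 1 of these genes was taken. This gave 11 of 34945 probe sets with 1 gene, standing for 8 of 18193 genes. No probe set is named for Clec9a or Clec12a, and these were not analysed here.

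Both groups were lympho-myeloid multipotent progenitors from bone marrow of female C57BL6 mice aged 8 to 10 weeks. The cells lacked lineage markers and CD150 and carried Sca-1, c-Kit and CD48. The wild type mice were the controls, and the others carried FLT3-ITD, a tandem repeat of part of the coding sequence of Flt3, a receptor tyrosine kinase gene; how the allele was made and its copy number are not given in the sources used here. Each genotype had 4 samples of 1 array, labelled 1, 2, 3 and a further 1 with the tag 037, called 037 here, which may repeat sample 1. The labels do not say whether samples came from separate mice or were pooled, so errors and p-values cover the spread among these 8 arrays alone, and that spread may be technical.

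C-type lectin receptors are membrane proteins with a lectin-like fold that bind sugars, lipids or proteins of microbes and of dying or neighbouring cells. Some activate myeloid cells through the kinase Syk, either with a tyrosine motif of their own or through the adaptors Fcer1g and Tyrobp, and others restrain cells through phosphatases. They are best known from dendritic cells, monocytes, macrophages, neutrophils and platelets, and most of the genes lie in clusters on mouse chromosome 6.

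All values are log2 RMA expression values per probe set. RMA corrects background, brings arrays to 1 distribution and summarises the probes of a set. The array medians lay between 5.98 and 6.05, and a probe set below them is called dim. Probe sets of 1 gene are called brighter or dimmer by their mean value alone, which does not compare amounts of RNA, and levels of different genes were not compared. In such bulk samples, fewer cells of a type and less RNA per cell cannot be told apart. Among the markers of the sorted cells, Kit averaged 9.14, Cd34 10.66 and Ptprc 10.79 in FLT3-ITD, while Slamf1, which encodes CD150, and the T cell gene Cd3e were dim on every array. The T cell genes Cd4 (6.48 in wild type, 6.54 in FLT3-ITD) and Cd8a (6.33 and 6.88) lay above the median on all 8 arrays, and neither differed past the threshold (limma adjusted p = 0.930 and 0.559). Cd48 rose by 1.06 ± 0.13 (SE; limma adjusted p = 0.00740) and Flt3 fell by 1.17 (SE 0.20; limma adjusted p = 0.0406). Array FLT3-ITD 1 stood apart: over all probe sets it correlated with the other arrays at 0.948 to 0.960, against 0.964 to 0.981 among the rest.

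Clec1a, a receptor for fungal melanin known from endothelial and some myeloid cells, was the member that differed. Its brighter probe set, 1456318_at, read 4.999, 3.96, 4.78 and 4.45 in wild type samples 1, 2, 3 and 037. In the FLT3-ITD samples, in the same order, it read 8.10, 7.94, 7.23 and 7.40. All 4 wild type values lay below the array median and all 4 FLT3-ITD values above it. The means were 4.55 ± 0.45 and 7.67 ± 0.42 (SD, n = 4 each), a difference of 3.12 ± 0.27 (SE). FLT3-ITD 1, the array that stood apart, was the highest, and without it the difference was 2.98. The gene entered the comparison through its FLT3-ITD arrays alone. Since the wild type values were dim and not shown to be above background, no fold is given.

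The other Clec1a probe set, 1460039_at, gave the same order of genotypes. It read 3.53, 3.18, 3.37 and 3.53 in wild type and 6.11, 5.62, 5.43 and 4.74 in FLT3-ITD. The genotypes did not overlap, although 1 FLT3-ITD array alone passed its median. The difference was 2.07 ± 0.26 (SE). The wild type values were dim here too, so the sizes of the differences in the pair of probe sets were not compared.

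**Figure D1:**
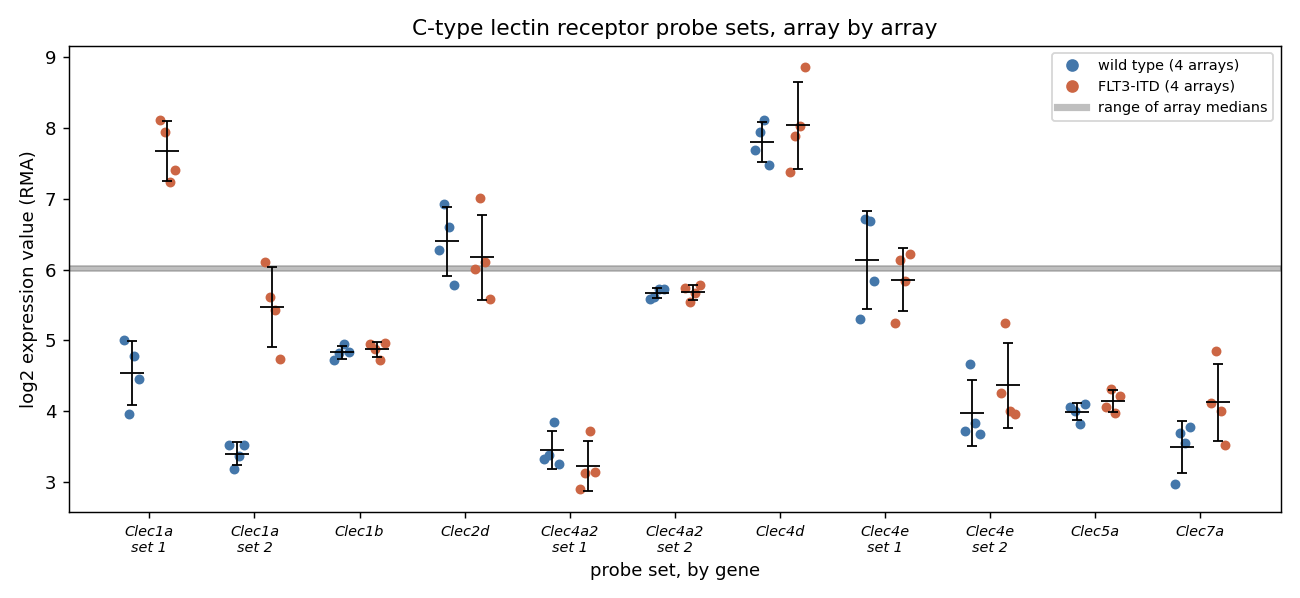
Each point is the log2 RMA value of 1 array for a C-type lectin receptor probe set, with wild type in blue and FLT3-ITD in orange; bars show the mean and SD of 4 arrays and the grey band the range of array medians. The 2 probe sets of Clec1a separate the genotypes, and the other 9 overlap.

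Across the family, 4 of the 8 measured genes passed the filter on dim probe sets, and Clec1a was the 1 gene past the threshold of a limma fit over all 10762 tested genes. In that fit 0.427% of genes were called higher and 0.604% were called in either direction; since the members were selected on this contrast, nothing is read from the count. The positive difference was larger than that of Clec1a in 10 tested genes. Over all 11 probe sets, 2 had genotypes that did not overlap, against 5.24% of all probe sets with 1 gene. With 1 probe set per gene, 1 member of 8 had every FLT3-ITD value above every wild type value, against 3.41% of all genes. The median difference of the 8 genes was 0.095, against 0.027 over all 18193 genes, with 6 positive and 2 negative.

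Clec4d and Clec4e, neighbours on chromosome 6, encode MCL and Mincle, receptors for mycobacterial glycolipids that signal with Fcer1g. Clec4d, read by 1420804_s_at, was the 1 member above the median on all 8 arrays. It read 7.69, 7.94, 8.11 and 7.47 in wild type and 7.38, 7.88, 8.02 and 8.85 in FLT3-ITD. FLT3-ITD 037 was the highest and FLT3-ITD 1 the lowest of all 8, so the genotypes overlapped, with a difference of 0.23 ± 0.30 (SE). In array FLT3-ITD 037 the 3′ Gapdh control exceeded the 5′ one by 2.99, against 1.82 to 2.29 elsewhere; its part in the Clec4d value was not tested, and without that array the difference was -0.04. A set of this type can also read related transcripts.

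The probe sets of Clec4e differed in sign. The brighter, 1420330_at, read 5.30, 6.71, 6.69 and 5.84 in wild type and 5.25, 6.13, 5.84 and 6.22 in FLT3-ITD, a difference of -0.28 ± 0.35 (SE). The dimmer, 1420331_at, read 3.73, 4.67, 3.83 and 3.68 in wild type and 4.25, 5.25, 4.01 and 3.96 in FLT3-ITD, a difference of 0.39 ± 0.33 (SE). In both, the genotypes overlapped, and no direction was settled for Clec4e.

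The promoters of this pair are shown because both genes were measured above the filter and lie side by side, that of Clec7a because it neighbours Clec1a, and that of Clec4a2 because it holds the single STAT-type match. Each is the 250 bases before the gene's start, from RefSeq on GRCm38.p6. They lie at chr6:123261857-123262106 (Clec4d, plus strand), chr6:123289872-123290121 (Clec4e, minus strand), chr6:129472780-129473029 (Clec7a, minus strand, the first of its entries) and chr6:123122440-123122689 (Clec4a2, plus strand). Capitals mark GAGGAA, the core of PU.1 sites, on either strand in the first 3, and TTCNNNGAA, the STAT-type motif, in Clec4a2.
Clec4d: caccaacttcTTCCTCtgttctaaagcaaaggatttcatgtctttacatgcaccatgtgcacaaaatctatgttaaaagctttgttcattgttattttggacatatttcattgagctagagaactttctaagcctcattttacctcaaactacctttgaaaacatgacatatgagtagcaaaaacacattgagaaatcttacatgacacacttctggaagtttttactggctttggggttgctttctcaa
Clec4e: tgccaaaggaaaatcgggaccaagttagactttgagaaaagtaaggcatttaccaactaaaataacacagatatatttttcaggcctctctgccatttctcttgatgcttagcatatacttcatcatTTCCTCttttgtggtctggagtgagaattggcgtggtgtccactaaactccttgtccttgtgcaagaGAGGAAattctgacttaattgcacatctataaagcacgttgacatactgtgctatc
Clec7a: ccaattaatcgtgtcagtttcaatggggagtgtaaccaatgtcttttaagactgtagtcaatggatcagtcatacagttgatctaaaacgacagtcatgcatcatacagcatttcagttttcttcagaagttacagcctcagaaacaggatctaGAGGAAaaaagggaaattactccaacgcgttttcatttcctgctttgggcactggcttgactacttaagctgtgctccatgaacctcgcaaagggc
Clec4a2: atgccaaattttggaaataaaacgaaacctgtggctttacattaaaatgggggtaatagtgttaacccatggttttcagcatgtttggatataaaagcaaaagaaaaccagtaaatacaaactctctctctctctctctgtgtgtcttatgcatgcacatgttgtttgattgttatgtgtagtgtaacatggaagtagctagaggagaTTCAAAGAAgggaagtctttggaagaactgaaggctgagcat
The STAT-type letters occurred in 7.02% of 32851 promoter windows of this length and in 1 of 9 members with an entry, 42 bases before the start of Clec4a2. Clec1a, the member that differed, had no entry, so its promoter was not searched. The PU.1 core occurred in 23.3% of windows and in 5 of the 9 members, Clec4d, Clec4e, Clec5a, Clec7a and Clec12a. Marked matches did not overlap, and a match of letters is not evidence of binding.

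Clec7a, or Dectin-1, binds fungal beta-glucan and signals through Syk and Card9. Its probe set, 1420699_at, was dim on every array, at 2.97, 3.69, 3.55 and 3.78 in wild type and 4.12, 4.85, 3.998 and 3.53 in FLT3-ITD. FLT3-ITD 037 fell among the wild type values, so the genotypes overlapped, and the difference was 0.63 ± 0.29 (SE). Clec5a, or MDL-1, which pairs with Tyrobp, read 4.06, 4.002, 3.82 and 4.11 on 1421366_at in wild type and 4.06, 4.31, 3.97 and 4.22 in FLT3-ITD. It too was dim on every array and overlapped, at 0.14 ± 0.12 (SE).

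Clec1b, or CLEC-2, is the podoplanin receptor of platelets. On 1421182_at it read 4.72, 4.82, 4.95 and 4.84 in wild type and 4.94, 4.88, 4.73 and 4.96 in FLT3-ITD. It was dim throughout and differed by 0.05 ± 0.11 (SE). Markers of platelets and megakaryocytes averaged 5.16 to 5.80 over wild type arrays and 5.41 to 5.59 over FLT3-ITD arrays. Pdpn, which encodes podoplanin, differed by 0.17 ± 0.25 (SE) and was not tested, being above the median on 1 array.

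Clec4a2, or DCIR, carries an inhibitory motif in its tail. Its brighter probe set, 1425406_at, read 5.59, 5.62, 5.72 and 5.73 in wild type and 5.73, 5.54, 5.67 and 5.78 in FLT3-ITD, a difference of 0.02 ± 0.10 (SE). The other, 1422013_at, ran from 3.26 to 3.85 in wild type and from 2.90 to 3.72 in FLT3-ITD, a difference of -0.23 ± 0.20 (SE). Both were dim on every array and overlapped.

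Clec2d, or Clr-b, is itself a ligand, bound by the inhibitory receptor that Klrb1b encodes. On 1419477_at it read 6.28, 6.93, 6.61 and 5.79 in wild type and 6.001, 7.01, 6.10 and 5.58 in FLT3-ITD. Sample 2 was the highest and 037 the lowest in each genotype. The genotypes overlapped, with a difference of -0.23 ± 0.33 (SE). Klrb1b was dim on every array with a wild type mean of 4.02 ± 0.34 against 4.99 ± 0.28 (SD, n = 4 each), did not overlap, and was not tested. That value depended on the probe set: the mean over its probe sets differed by 0.51.

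The neighbours of Clec1a on the chromosome had smaller differences. Among the 9 measured protein-coding genes in the run from Clec2d to Tmem52b, the others differed by -0.27 (Cd69) to 0.63 (Clec7a). Olr1, a lectin-like receptor for oxidised lipoprotein, did not overlap either, but lay far below the median at 2.71 ± 0.06 and 3.04 ± 0.20 (SD, n = 4 each). Besides Clec1a, Clec2d and Cd69 alone were tested in this run, and the other measured genes were too dim. Clec9a, next to Clec1a, and Clec12a have no probe set named. Whether the rise was confined to Clec1a was not tested. Near Clec2d, the non-coding gene 2310001H17Rik differed by 1.35 ± 0.70 (SE; limma adjusted p = 0.605).

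**Figure D2:**
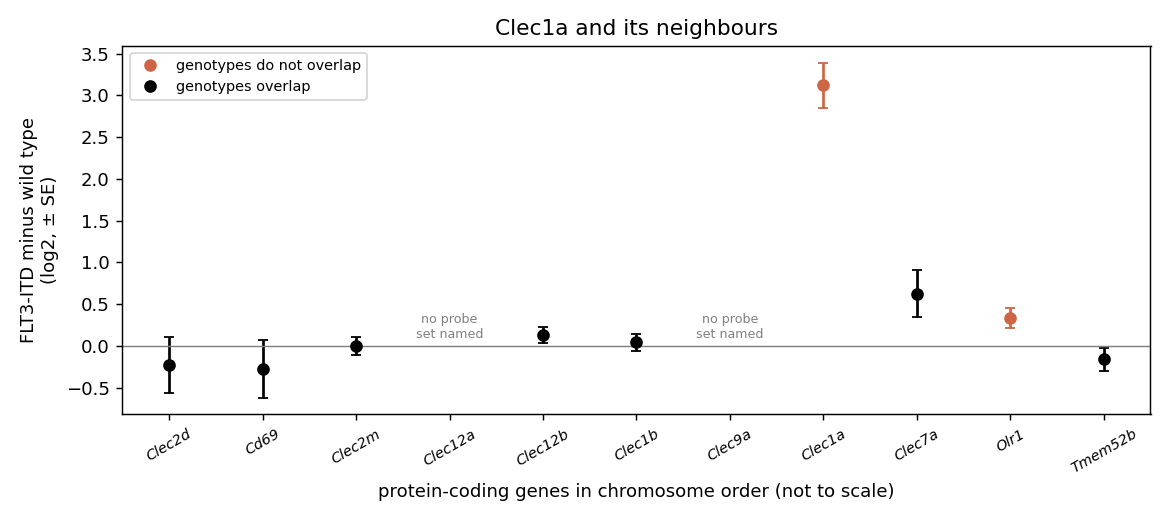
The difference of FLT3-ITD minus wild type (log2, bars SE) is plotted for the protein-coding genes around Clec1a in chromosome order, not to scale, orange where the genotypes do not overlap. Clec1a stands at 3.12 and the other measured genes between -0.27 and 0.63.

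Over the 8 arrays, each gene centred on its wild type mean, the tested profiles most like that of Clec1a were those of H2-Aa, Naaa and H2-Ab1. The root mean square differences from Clec1a were 0.285, 0.400 and 0.464 on the log2 scale. H2-Aa and H2-Ab1 encode the chains of an MHC class II molecule, and Naaa a lysosomal amidase. Their differences, 3.13, 3.39 and 3.58, are close to that of Clec1a by the way they were picked.

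The genes whose proteins carry signals from these receptors did not pass the test. Of 28 listed adaptors, kinases and phosphatases 23 were measured and 21 tested, 10 with positive and 11 with negative differences and a median of -0.04; limma called 0, and 2 were higher and 0 lower at an unadjusted p under 0.05. Over all tested genes 5.74% were higher and 3.84% lower at that level. The pair was Fcer1g and Tyrobp, the adaptors of the activating receptors. Fcer1g read 6.70, 7.74, 7.82 and 7.77 in wild type and 9.21, 9.14, 8.23 and 8.55 in FLT3-ITD. Its genotypes did not overlap, and the difference of 1.28 ± 0.31 (SE) did not pass (limma adjusted p = 0.163). Tyrobp differed by 0.55 ± 0.20 (SE; limma adjusted p = 0.412), with FLT3-ITD 037 inside the wild type range. Next by p were Pik3cd, a phosphoinositide kinase subunit, at 0.83 ± 0.46 (SE; limma adjusted p = 0.622), and Ptpn6, the phosphatase SHP-1, at -0.41 ± 0.24 (SE; limma adjusted p = 0.647).

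Syk, the kinase shared by the activating receptors, differed by probe set. The brightest, 1425797_a_at, differed by -0.05 ± 0.19 (SE), and the other 3 by -0.23, -0.93 and -1.03. In 1457239_at, the last of these, every FLT3-ITD value, 6.83 to 7.09, lay below every wild type value, 7.57 to 8.93. Card9 was not analysed here.

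**Figure D3:**
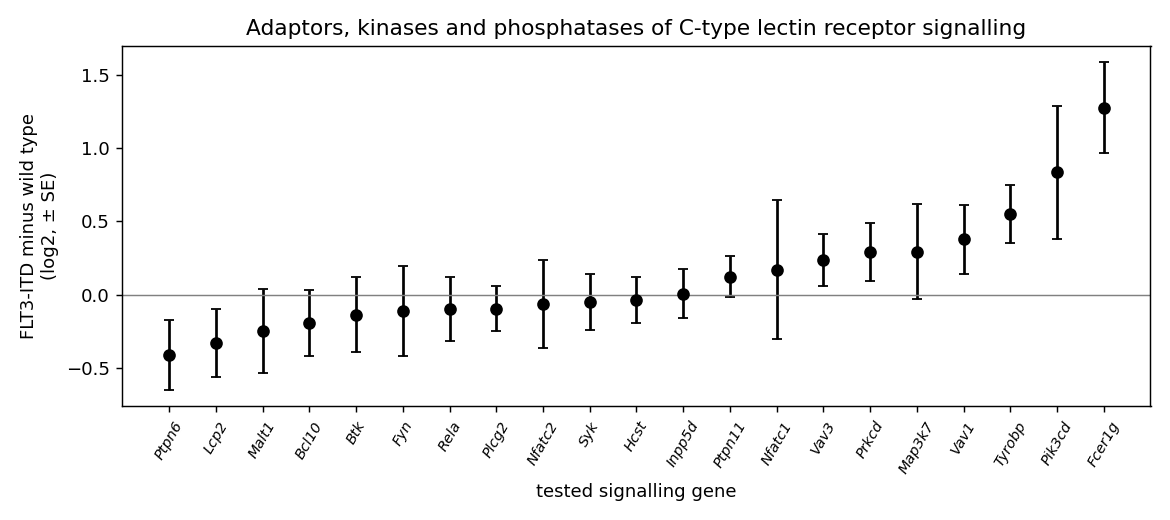
The difference of FLT3-ITD minus wild type (log2, bars SE) is plotted for the 21 tested signalling genes in rising order. Fcer1g is the highest at 1.28 and Ptpn6 the lowest at -0.41, and limma called 0 of them.

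Of 12 cytokine and early response genes that these receptors induce in myeloid cells, 4 were tested, limma called 0, and 1, the chemokine gene Ccl3, was lower at an unadjusted p under 0.05. Ccl3 read 8.31, 9.10, 9.40 and 9.61 in wild type and 7.88, 8.25, 7.95 and 7.79 in FLT3-ITD. The genotypes did not overlap, and the difference was -1.14 ± 0.27 (SE; limma adjusted p = 0.147). That adjusted p was 0.0247 without wild type 1. The other tested genes differed by -0.12 (Egr3), 0.09 (Il1b) and -0.01 (Il12b).

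Other C-type lectin genes gave no call either. Of 60 listed, 51 were measured and 16 tested; limma called 0, and at an unadjusted p under 0.05 2 were higher and 1 lower. These were Klrb1f, a receptor of the NKR-P1 family, at 1.14 ± 0.37 (SE; limma adjusted p = 0.341), Clec11a, a secreted growth factor, at 0.59 ± 0.22 (SE; limma adjusted p = 0.448), and Cd93 at -0.50 ± 0.21 (SE; limma adjusted p = 0.491). Colec11, a soluble collectin, came next at 0.24 ± 0.11 (SE; limma adjusted p = 0.561). Its wild type values were all dim, so Colec11 entered the comparison through its FLT3-ITD arrays alone. Of the 51, 5 had every FLT3-ITD value above every wild type value, against 3.41% of all genes: Colec11, Klra2, Klrb1b, Klrk1 and Olr1. All but Colec11 were too dim to be tested, with Klra2 averaging 2.63 in wild type and 2.84 in FLT3-ITD. Like the members, this list was chosen with earlier results of these data known, so nothing is read from the count of 5. Klrk1, which encodes the activating receptor NKG2D, read 3.43, 4.23, 3.50 and 3.57 in wild type and 6.45, 6.49, 5.87 and 4.40 in FLT3-ITD. With 2 arrays above the median it was not tested, and its difference was 2.12 ± 0.44 (SE).

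Averages of conventional dendritic and of monocyte and macrophage markers were higher in FLT3-ITD, as Clec1a was, and the tested neutrophil markers had negative differences. Averaged over 12 conventional dendritic cell markers, wild type arrays lay at 5.44 to 5.67 and FLT3-ITD arrays at 6.01 to 6.72. Of these, 7 had every FLT3-ITD value above every wild type value, against 3.41% of all genes. The marker lists were chosen with earlier results of these data known, so nothing is read from that count. Of 5 tested, 1, Naaa, rose, by 3.39 ± 0.33 (SE, limma adjusted p = 0.00288). Its wild type values were all dim, so Naaa entered the comparison through its FLT3-ITD arrays alone. As a mean over its probe sets Naaa differed by 1.71 and still passed. FLT3-ITD 1 was the highest array for Naaa, Zbtb46 and Wdfy4; without it Naaa differed by 3.17 and the averages of the remaining FLT3-ITD arrays spanned the same range. Xcr1, the defining marker of the type that carries Clec9a, read 4.72, 4.47, 4.83 and 4.59 in wild type and 7.01, 7.20, 6.87 and 4.98 in FLT3-ITD. FLT3-ITD 037 was dim, so that with 3 arrays above the median the gene was not tested over all 8 arrays. In a fit of all 8 arrays without the filter Xcr1 differed by 1.86 (limma adjusted p = 0.192). Without FLT3-ITD 037 it differed by 2.37. There it passed the filter through its FLT3-ITD arrays alone, with the 1 low value removed, so no p is given for that fit. Zbtb46, a transcription factor of these cells, differed by 2.38 ± 0.52 (SE; limma adjusted p = 0.124), Cadm1 by 0.82 ± 0.27 (SE; limma adjusted p = 0.346) and Wdfy4 by 0.68 ± 0.20 (SE; limma adjusted p = 0.283). Zbtb46 and Cadm1 have 4 probe sets each, of which the brightest alone is given here. As a mean over its probe sets Wdfy4 differed by 0.48. Itgax (1.24) and Itgae (0.44) did not overlap and were too dim to be tested. Batf3 (0.22), Cd209a (0.30), Mgl2 (0.02) and Snx22 (0.17) overlapped between genotypes. So did Ccr7, which went the other way (-0.22).

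Averaged over 12 monocyte and macrophage markers, wild type arrays lay at 6.04 to 6.47 and FLT3-ITD arrays at 6.77 to 7.27. The rise was not shared across the list, whose median difference was 0.21. In 3 of the 12, Ccr2, Ms4a6c and F13a1, every FLT3-ITD value lay above every wild type value, against 3.41% of all genes. Nothing is read from that count either. Ms4a6c differed by 1.72 (limma adjusted p = 0.145) and F13a1 by 1.60 (limma adjusted p = 0.0864). Fcgr1 (-0.38) and Itgam (-0.17) were negative. The chemokine receptor gene Ccr2 rose by 3.62 ± 0.52 (SE; limma adjusted p = 0.0213), and that call was lost without wild type 1 (0.0593) or 3 (0.0660) and without FLT3-ITD 1 (0.0510), 2 (0.0767) or 3 (0.0696). The defining markers Adgre1, Cd14, Cx3cr1, Itgam and Mertk were dim on every array. Of 10 neutrophil markers 6 were tested, all 6 with negative differences and a median of -1.59. Limma called 0 of them, and 3 were lower and 0 higher at an unadjusted p under 0.05: Ngp at -2.39 ± 0.67 (SE; limma adjusted p = 0.255, and 0.0286 without FLT3-ITD 2), S100a8 at -2.07 ± 0.90 (SE; limma adjusted p = 0.519) and Ltf at -0.77 ± 0.31 (SE; limma adjusted p = 0.482). Their averages were 6.37 to 7.60 over wild type arrays and 5.43 to 7.16 over FLT3-ITD arrays, which overlap, with FLT3-ITD 1 the lowest. Those over 8 endothelial markers were lower in FLT3-ITD, at 6.13 to 6.19 against 6.28 to 6.43. The drop was not shared across the list, whose median difference was 0.006. Emcn (-0.87) and Tek (-0.76) fell furthest. Of 4 tested, 2 were positive and 2 negative, and limma called 0 (0 also at an unadjusted p under 0.05). Cdh5, Kdr, Tek and Cldn5 were dim on every array. Averages for plasmacytoid dendritic, NK and B cell markers overlapped between genotypes. The part of these cells in the Clec1a difference was not tested.

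**Figure D4:**
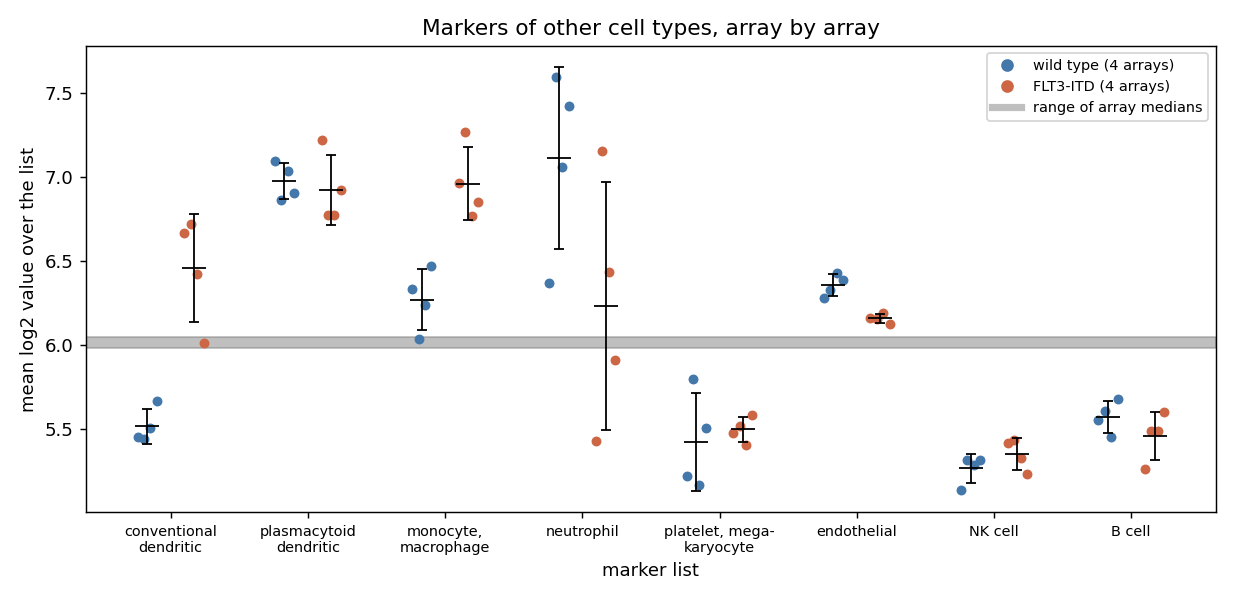
Each point is the mean log2 value of a marker list on 1 array, with wild type in blue and FLT3-ITD in orange; bars show the mean and SD of 4 arrays and the grey band the range of array medians. Conventional dendritic and monocyte-macrophage averages are higher in every FLT3-ITD array, and endothelial ones lower. The median difference was 0.21 over the 12 monocyte and macrophage markers and 0.006 over the 8 endothelial markers.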

How the data were processed

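Total RNA of sorted progenitors was amplified with a NuGEN Pico kit, labelled with biotin and hybridised, per the labels' protocols. The deposited values are log2 expression values that the authors made with RMA, per the submitters' processing notes; no source used here gives the version. Scanner signal was not analysed here, and the number of arrays limits the precision.

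Of 45101 probe sets, 64 were controls. The annotation gave 1 gene to 34945, several to 932 and none to 9160; 34741 had a current symbol by Entrez ID in a GRCm38.p6 table. The probe set of highest mean stood for each gene, and a gene was tested if 4 or more arrays had it above their median (3 where a sample was left out or averaged). FLT3-ITD was compared with wild type with limma 3.58.1 in R 4.3.3 without covariates, at a Benjamini-Hochberg adjusted p of 0.05; all adjusted p-values are limma's, over all tested genes. Standard errors of members come from a fit over all probe sets with 1 gene, those of other untested genes from a fit without the filter. Tables and figures used Python 3.11.15, pandas 2.3.3 and matplotlib 3.10.9. The procedure was tested on simulated data.

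The members and lists were chosen with earlier results of these data known. The rule for named genes took all members, the called genes or up to 4 of smallest p in the signalling, cytokine and other lectin lists, the 3 profiles most like a called member, tested genomic neighbours, and defining markers. Syk, Klrk1, Klrb1b, Olr1, Zbtb46, Wdfy4, Cadm1, Ccr2, Xcr1, Ngp, S100a8, Ltf, Cd4 and Cd8a were named or singled out after their values were seen. So were Batf3, Ccr7, Cd209a, Emcn, F13a1, Fcgr1, Itgae, Itgax, Klra2, Mgl2, Ms4a6c, Snx22 and Tek. Alternatives covered the replicate number, the 037 samples, normalization, filter, probe set choice, variance model and the removal of each sample.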

Additional observations from a re-analysis of the deposited data

Results flagged for a closer look

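In 10 of 84 groups of 4 values, 1 sample lay well away from the remaining 3. Some of these genes were named after their values were seen, and all groups come from the same 8 arrays. The count was therefore not set against a rate expected by chance. Wild type 1 was lowest for Fcer1g at 6.70, for Cd93 at 10.83 and for Zbtb46 at 4.46. Wild type 2 was highest for the dimmer Clec4e probe set 1420331_at at 4.67, for Klrk1 at 4.23 and for 2310001H17Rik at 6.75. FLT3-ITD 1 was lowest for Klrb1f at 7.09 and highest for Wdfy4 at 10.14. FLT3-ITD 2 was highest for Cadm1 at 8.33, and FLT3-ITD 037 was lowest for Xcr1 at 4.98.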

How the results depend on the processing

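The difference of Clec1a ranged from 2.60 (mean over its probe sets) to 3.27; since it was chosen on this contrast, refits of the same values are no evidence of stability. With the filter above the median on all 8 arrays it was not tested, so 0 members passed, and 25 genes were called against 65. Leaving out a sample gave 31 to 57 genes; the count moved by over 1.5 times without wild type 2 (34), 3 (31) or 037 (41) and without FLT3-ITD 2 (35) or 3 (39). Samples of the same number correlated at 0.027 to 0.11 in their deviations, with 1 of 4 pairs over 0.1. Samples of different number correlated at -0.089 to 0.054. What samples of the same number share was not tested. With the number as a replicate block 22 genes were called. Calls among signalling and other lectin genes stayed at 0. Clec4a2 read -0.11 as a mean over probe sets. Small differences changed sign: Il12b read 0.0015 with samples 1 and 037 averaged, 0.0025 with a further quantile normalization, 0.050 without wild type 3 and 0.016 without FLT3-ITD 1, and Syk 0.12 without wild type 2. Leaving out samples, Il12b ran from -0.064 to 0.050 and Syk from -0.17 to 0.12. Cd4 read -0.040 as a mean over probe sets, -0.14 on plain probe sets and -0.023 to 0.15 on leaving out a sample, the lowest without FLT3-ITD 037. With samples 1 and 037 averaged, Ccl3 (limma adjusted p = 0.0455) and Zbtb46 (0.0319) passed; Ccr2 did not under the block (0.0905). Klrb1b read 0.16 on plain probe sets. Except where given, the cause was not tested. Dim signal limits Clec1b, Clec4a2, Clec5a and Clec7a.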
